A study of Homo sapiens with 18 samples.

Results

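The tip of the short arm of chromosome 16 was examined as 1000 bp windows of ATAC-seq coverage in 6 human ovarian cancer cell lines. Members were all windows of the deposited table on chromosome 16 with a start below 10 Mb in hg19, a rule chosen on the difference between PEA2 and PEA1 in these same data. They numbered 777 of the 89428 windows in the table, and 2446 further windows covered the rest of chromosome 16. Of the 777, 206 were promoter windows, with the centre from 1 kb upstream to 100 bp downstream of a protein-coding transcription start site, and 571 were distal. The distal windows comprised 300 intronic, 149 intergenic and 122 exonic windows.

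ATAC-seq measures open chromatin through the Tn5 transposase, which inserts sequencing adapters where DNA is not wrapped tightly in nucleosomes. The study compared 3 pairs of a platinum-sensitive line and its resistant partner, with 3 libraries for each line and 18 in all. The PEA lines share 1 donor with high-grade serous ovarian cancer, PEA1 being the platinum-naive ascites line and PEA2 the line taken once resistant disease had returned. PEO1 and PEO4 came from another such patient, before and after clinical resistance appeared, both following platinum chemotherapy. A2780, labelled as an endometrial/ovarian line, was paired with CP70, a resistant derivative selected in culture. All lines grew in the same medium (RPMI-1640 with glutamine and serum), and no library was labelled as drug-treated. Each line is a single culture history, so the p-values measure the spread between libraries of these lines, which may be technical.

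Band 16p13.3 at the end of the short arm is among the most gene-dense and GC-rich parts of the human genome. It carries the alpha-globin cluster with its regulatory elements in the introns of NPRL3, the tumour suppressors TSC2 and AXIN1, the polycystic kidney gene PKD1 and the histone acetyltransferase CREBBP. Beyond these lie the very long neuronal genes RBFOX1 and GRIN2A, where genes are sparse. Coverage from a window grows with the number of DNA copies as well as with how open each copy is, and these cannot be told apart in this table.

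Sequence composition set the windows apart from the rest of the chromosome. The median GC content was 64.1% in the 777 windows, 54.5% in the rest of chromosome 16 and 50.2% on other chromosomes. The median CpG observed-to-expected ratio was 0.489, against 0.345 in the rest of the chromosome, and 37.5% of windows were CpG-rich (GC over 50% and ratio over 0.6), against 27.4%. The median distance to a start site was 1468 bp, against 7668 bp. Start sites of 165 of the 206 protein-coding genes in the interval lay in a window of the table, a share of 80.1%, against 70.4% in the rest of the chromosome. In distal windows the GC-box letters GGGCGG, on either strand, occurred in 71.3%, against 47.1% of distal windows in the rest of the chromosome and 37.3% in the whole table. The AP-1 letters TGACTCA occurred in 18.7% of distal windows, against 32.1% and 32.5%. In promoter windows AP-1 letters occurred in 10.7%, against 12.4% in the rest of the chromosome. GGGCGG was present in 92.2% of promoter windows, against 83.6%. The E-box letters CACGTG occurred in 27.3% of distal windows and 24.3% of promoter windows, against 17.9% and 21.7% in the rest of the chromosome.

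Stretches of 200 bases from 4 windows show this range of composition. They were read from the GRCh37 reference on the plus strand, from the part of each window nearest its centre without an annotated untranslated region, and capitals mark CpG dinucleotides. The first shows the promoter window with the largest deficit in PEA2 relative to PEA1, near NHLRC4 (chr16:616001-616200).
NHLRC4 upstream: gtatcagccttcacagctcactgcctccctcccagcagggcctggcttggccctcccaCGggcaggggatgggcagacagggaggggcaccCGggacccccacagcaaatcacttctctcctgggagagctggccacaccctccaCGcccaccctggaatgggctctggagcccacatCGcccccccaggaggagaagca
The next shows the distal window with the largest excess in PEA2, in an RBFOX1 intron (chr16:5901701-5901900).
RBFOX1 intron: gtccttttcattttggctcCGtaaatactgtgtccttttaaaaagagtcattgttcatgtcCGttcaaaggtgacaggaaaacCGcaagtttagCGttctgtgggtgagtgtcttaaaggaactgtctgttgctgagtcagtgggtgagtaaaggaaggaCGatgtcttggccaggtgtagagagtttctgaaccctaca
The last pair shows the windows with the largest increase and decrease in PEO4 relative to PEO1, in introns of MAPK8IP3 (chr16:1813901-1814100) and GRIN2A (chr16:9948101-9948300).
MAPK8IP3 intron: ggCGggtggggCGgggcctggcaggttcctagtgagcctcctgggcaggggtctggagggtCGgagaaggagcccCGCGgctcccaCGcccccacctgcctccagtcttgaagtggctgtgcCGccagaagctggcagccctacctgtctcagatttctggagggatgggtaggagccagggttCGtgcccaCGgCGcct
GRIN2A intron: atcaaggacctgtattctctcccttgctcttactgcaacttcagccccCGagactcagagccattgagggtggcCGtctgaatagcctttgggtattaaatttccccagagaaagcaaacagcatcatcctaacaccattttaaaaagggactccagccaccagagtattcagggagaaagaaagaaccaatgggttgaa
The MAPK8IP3 stretch held 10 CpG dinucleotides at 69.0% GC, and the GRIN2A stretch held 2 at 46.5% GC. The NHLRC4 stretch held 4 CpG at 67.5% GC, and the RBFOX1 stretch held 5 at 44.5% GC. One copy of the AP-1 letters was found in the RBFOX1 stretch and none in the other 3.

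PEA2 had the lowest coverage of the interval among the 6 lines. The windows took 0.337% ± 0.0545 (SD, n = 3) of the reads in the table in PEA2, against 1.27% ± 0.0985 in PEA1. Among the other pairs it was 1.14% ± 0.136 for A2780, 1.29% ± 0.110 for CP70, 0.757% ± 0.0221 in PEO1 and 0.975% ± 0.0455 in PEO4. As a share of reads on chromosome 16, the PEA2 libraries lay at 8.27% ± 1.10 and the other lines had means from 27.3% to 33.9%. The median window held 11 to 16 reads in the PEA2 libraries and 19 to 80 reads in the others. The precision of single windows in PEA2 was therefore limited by counting error, and library totals in the table ran from 1974152 to 7471059 reads.

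Across promoter windows, coverage in FPKM (reads per kilobase, scaled to the mapped reads of the library) had a median of 0.951 ± 0.0822 (SD, n = 3) in PEA2 and 2.60 ± 0.263 in PEA1. In the rest of chromosome 16, the corresponding values were 2.99 ± 0.0957 in PEA2 and 2.28 ± 0.321 in PEA1. Distal windows had a median of 0.636 ± 0.0764 FPKM in PEA2 and 2.01 ± 0.0415 FPKM in PEA1, against 2.39 ± 0.137 and 0.893 ± 0.0754 FPKM in the rest of the chromosome. By these medians PEA2 had less coverage than PEA1 in the interval and more in the rest of chromosome 16, in both classes of window. Promoter windows from 10 to 14 Mb were an exception, with 0.949 FPKM in PEA2 and 1.81 FPKM in PEA1. Distal windows from 10 to 14 Mb had 0.710 FPKM in PEA2 and 0.774 FPKM in PEA1.

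The position of the interval in each library was expressed as the median of log2(FPKM + 0.1) over its windows minus that over the rest of chromosome 16 in the same class. For promoter windows this log2 shift was -1.70, -1.39 and -1.60 in the PEA2 libraries. The shift was 0.18, 0.13 and 0.25 in PEA1. The other lines had mean shifts of 0.12 ± 0.11 in A2780, 0.15 ± 0.02 in CP70, 0.38 ± 0.07 in PEO1 and 0.58 ± 0.05 in PEO4 (SD, n = 3). For distal windows the log2 shift was -2.02, -1.57 and -1.71 in the PEA2 libraries and 1.07, 0.97 and 1.24 in PEA1. Mean distal shifts were 0.62 ± 0.20 in A2780, 0.98 ± 0.09 in CP70, -0.30 ± 0.04 in PEO1 and 0.26 ± 0.08 in PEO4. The PEA2 libraries lay below all 15 libraries of the other lines in both classes. The PEA pair differed by -1.75 in promoter windows and -2.86 in distal windows, values that describe the contrast used to choose the interval and carry no test. Over windows above 2 FPKM in at least 2 libraries of the other 4 lines, the differences were -1.66 and -1.82.

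**Figure D1:**
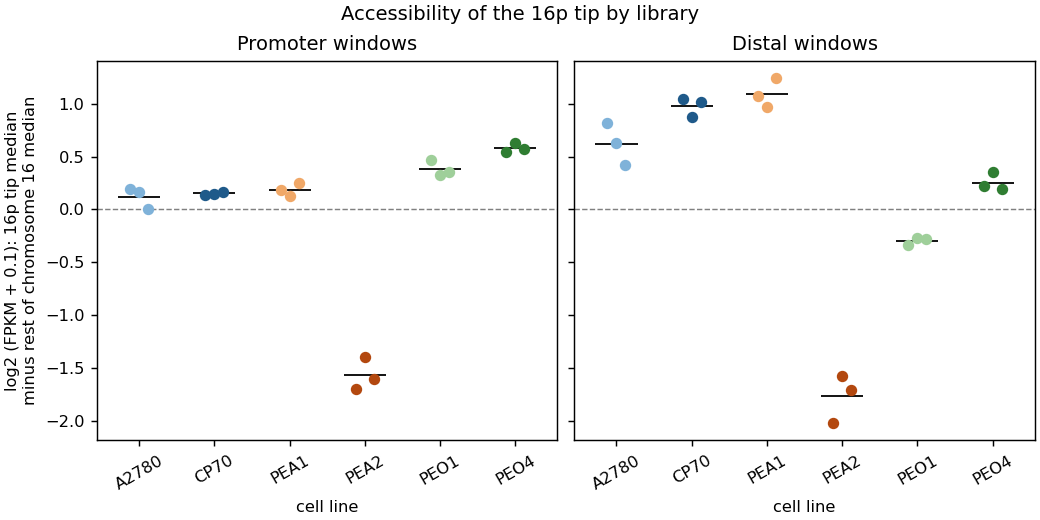
Log2 shift of the 16p tip in each library (y axis: median log2(FPKM + 0.1) of the 777 windows minus that of the rest of chromosome 16), by line and window class, with dots for libraries and bars for the mean of 3. The PEA2 libraries sit between -1.70 and -1.39 for promoters and between -2.02 and -1.57 for distal windows, below every other library.

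In the other pairs every resistant library lay above every sensitive library in 3 of the 4 comparisons. CP70 exceeded A2780 by 0.35 in distal windows and by 0.03 in promoter windows, where the libraries overlapped. PEO4 exceeded PEO1 by 0.20 in promoter windows and 0.55 in distal windows, with no overlap between libraries in either class. In exact two-sided permutation tests p was 0.10 for these last 2 and for the CP70 distal difference, the smallest value that 3 against 3 libraries allow, and 1.0 for CP70 promoters. The Benjamini-Hochberg adjusted values over the 4 tests were 0.13 and 1.0, so none passed 0.05. With GC correction the CP70 distal difference was 0.06 and the PEO4 promoter difference 0.09.

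Single windows of the interval were mostly lower in PEA2 than in PEA1. The difference of line means on the log2 scale was below 0 in 198 of 206 promoter windows and 492 of 571 distal windows. Its median was -1.27 in promoter windows (quartiles -2.05 and -0.81) and -1.36 in distal windows (quartiles -2.04 and -0.46). In the rest of chromosome 16 the medians were 0.44 and 1.11, and on other chromosomes they were -0.17 and 0.43. The share of windows below 0 was 26.5% for promoters and 13.8% for distal windows in the rest of chromosome 16. On other chromosomes it was 59.1% and 33.8%. Every PEA2 library lay below every PEA1 library in 172 promoter windows and 410 distal windows, beside a background of 19.7% of all windows in the table. Every PEA2 library lay above every PEA1 library in 3 promoter and 27 distal windows, beside 41.6%. These counts describe the choice of the interval and nothing is read from them.

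**Figure D2:**
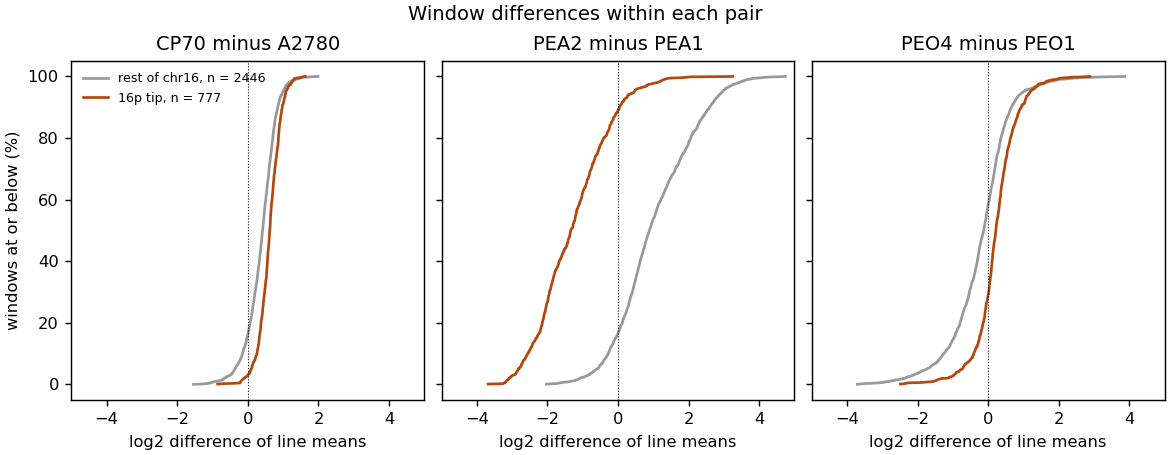
Cumulative share of windows (y axis, %) by the log2 difference of line means (x axis, resistant minus sensitive, on log2(FPKM + 0.1)), one panel per pair, for the 777 windows of the 16p tip and the 2446 windows of the rest of chromosome 16. In the PEA pair the tip curve lies left of 0 for 198 of 206 promoter and 492 of 571 distal windows, whereas in the other pairs the tip curve lies slightly to the right of the rest of the chromosome.

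Within classes of GC content the medians of tip windows were also lower, a description, since the PEA contrast chose the interval. Of the 777 windows, 187 (24.1%) met the coverage limit of the table, given below, only through PEA1. In the PEA pair the median log2 difference was -1.02 in tip windows of 50 to 60% GC, -1.60 at 60 to 70% and -1.35 over 70%. The same strata had medians of 0.94, 0.52 and 0.11 in the rest of chromosome 16, and of 0.12, -0.05 and -0.30 on other chromosomes. The 35 tip windows below 50% GC had a median of -0.08, against 1.60 in the rest of the chromosome.

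The difference was not even along the interval. Blocks with bounds chosen after the values were seen are used for description. Block A was the first megabase, B ran from 1 to 5 Mb, C from 5 to 5.2 Mb, D from 5.2 to 10 Mb, E from 10 to 14 Mb, F from 14 Mb to the centromere, and G was the long arm. Only A to D belong to the 777 windows, with 310, 402, 17 and 48 windows. All 310 windows of block A were lower in PEA2, with a median log2 difference of -2.60 in promoter windows and -2.07 in distal windows. The medians were -1.06 and -0.67 in block B, -2.57 and -1.55 in block C, and -0.39 and 0.11 in block D.

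The windows of the table had been kept for coverage above 2 FPKM in at least 2 of the 18 libraries, so windows of block A were in part selected for being high in PEA1. There, 179 of 310 windows (57.7%) met the limit only through the PEA1 libraries, against 3.26% of the whole table, 0.746% of block B, 29.4% of block C and 0% of block D. Levels are therefore also given for the windows that met the limit in the other 4 lines alone, a restriction added after the data were seen. At least 2 libraries exceeded 2 FPKM in 298 of the 310 windows in PEA1, 1 in PEA2, 28 in A2780, 92 in CP70, 79 in PEO1 and 84 in PEO4. In the 131 such windows of block A, the median log2 difference between PEA2 and PEA1 was -2.33, with -2.76 in 47 promoter windows and -2.12 in 84 distal windows. Block A held 310 windows per Mb and block D 10.0. The longest stretch without a window was 2.32 Mb, from 5902301 in RBFOX1 to 8222400.

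In the windows of block A that met the limit without PEA1 or PEA2, PEA1 was still high. The median had 6.45 ± 0.902 FPKM in PEA1 and 0.937 ± 0.143 FPKM in PEA2 over 47 promoter windows (SD, n = 3), and 2.95 ± 0.170 and 0.693 ± 0.105 FPKM over 84 distal windows. In block B the corresponding medians were 2.14 ± 0.281 and 0.998 ± 0.0564 FPKM over 130 promoter windows, and 1.00 ± 0.0509 and 0.689 ± 0.0757 FPKM over 268 distal windows. The PEA1 medians were lower in block B than in block A by more than the replicate SD in both classes, whereas the PEA2 medians of the blocks differed by less than the SD in block A. Over all 310 windows of block A, the medians were 5.44 ± 0.501 FPKM in PEA1 and 0.803 ± 0.119 FPKM in PEA2 for promoters, and 2.46 ± 0.158 and 0.551 ± 0.101 FPKM for distal windows. PEA2 then lay lower in block A than in block B, at 0.998 ± 0.0564 and 0.689 ± 0.0757 FPKM over all windows of B, by more than the SD of either block. PEO1 was as low as PEA2 over all distal windows of block A, at 0.558 ± 0.0525 FPKM, but had 1.81 ± 0.206 FPKM in the 84 that met the limit in the other 4 lines. The last window of block A (chr16:857701-858700, intergenic near GNG13) had 2.19 FPKM in PEA1 and 0.458 FPKM in PEA2. No window of the table lay between it and the next one at chr16:1019701-1020700, an LMF1 intron window with 1.64 and 0.861 FPKM.

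**Figure D3:**
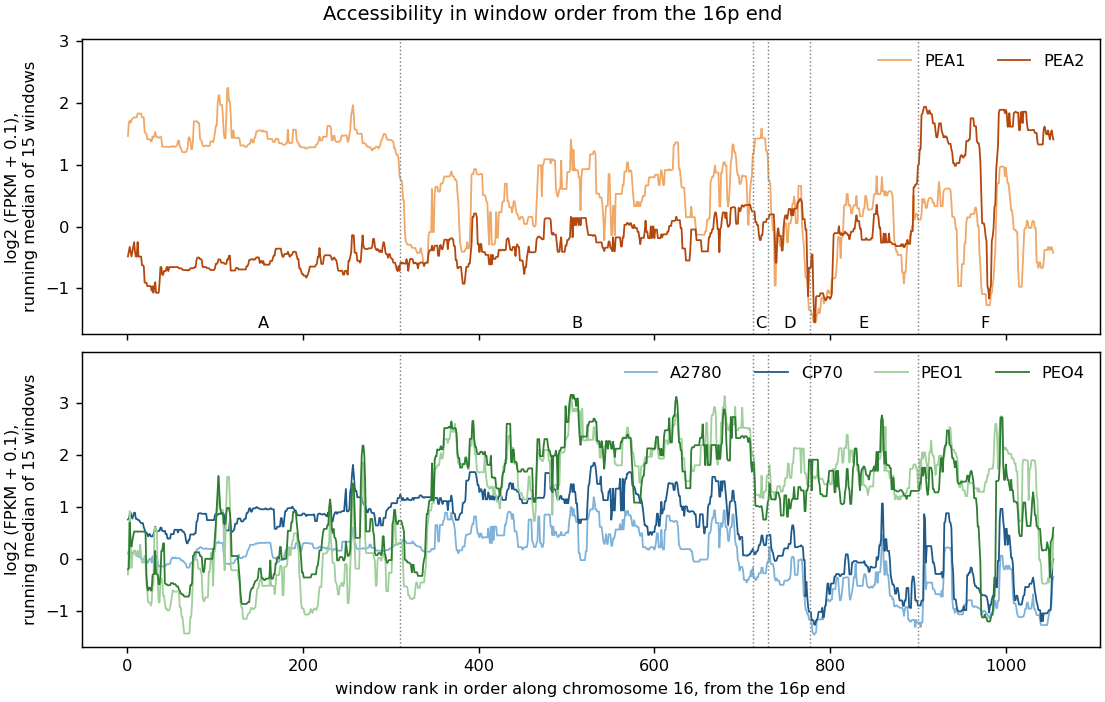
Running median over 15 windows of the line mean of log2(FPKM + 0.1) (y axis) against window rank from the 16p end (x axis), with PEA1 and PEA2 above, the other 4 lines below and dotted lines between blocks A to F. All windows of the table are drawn, including the 179 of block A that met the coverage limit only through PEA1. PEA1 is raised over the 310 windows of block A and again over the 17 windows of block C, and PEA2 stays low until block F, where it exceeds PEA1.

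Levels were also taken relative to the other lines. For each line, the log2 difference from the mean of A2780, CP70, PEO1 and PEO4 was computed, less its median on other chromosomes. Among windows that met the limit in those 4 lines, this relative level in promoter windows of block A was 1.34 in PEA1 and -1.16 in PEA2. In block B it was -0.43 and -1.27. In block C it was 1.56 and -0.99 over 5 promoter windows, and in block D -0.47 and -0.63 over 10. Distal windows had relative levels of 1.57 and -0.99 in block A, -0.32 and -1.39 in block B, 0.66 and -0.66 over 7 windows in block C, and -0.40 and -0.60 in block D. On this scale PEA2 was the lower line of the pair in all 4 blocks and both classes. PEA1 was above the mean of the other lines in blocks A and C and below it in B and D. PEA2 was lower in block B than in block A. Over all windows the relative levels in block A were 1.39 and -1.11 for promoters and 1.70 and -0.90 for distal windows, and in block B -0.46 and -1.30, then -0.47 and -1.62. Of the PEA levels, the distal level of PEA1 in block C moved most, from 0.66 to 1.41. PEO1 had the lowest relative level in distal windows of block A, at -1.10 in the restricted set and -1.62 over all.

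**Figure D4:**
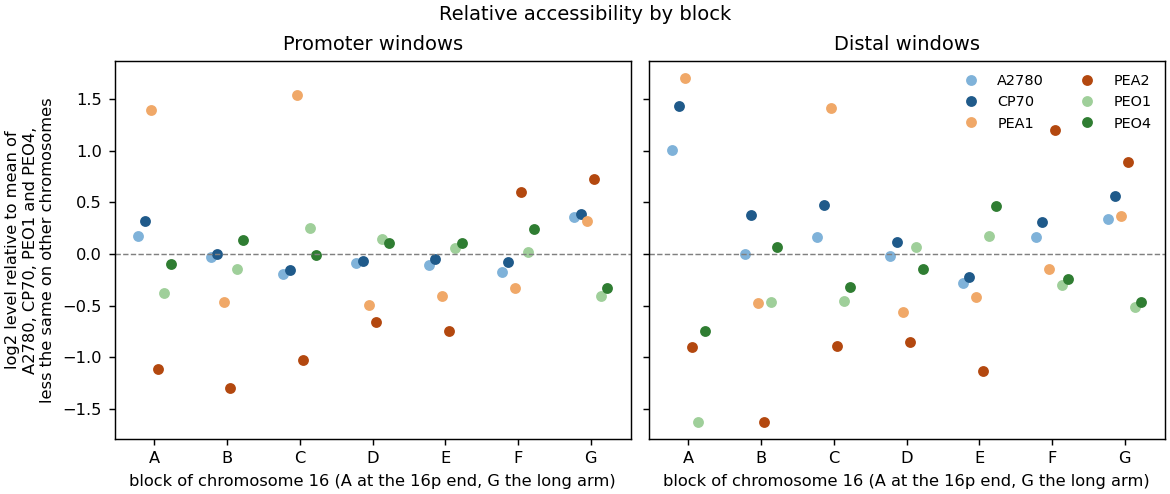
Relative level of each line (y axis: log2 difference from the mean of A2780, CP70, PEO1 and PEO4, less its median on other chromosomes) in blocks A to G (x axis) for promoter and distal windows, over all windows of the table. PEA1 lies at 1.39 and 1.70 in block A, where 57.7% of windows met the coverage limit only through PEA1. PEA2 lies below 0 in blocks A to E and at 0.60 and 1.20 in block F, where 390 of 684 distal windows met the limit in the other 4 lines.

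The lines were also ordered window by window. Among windows that met the limit in the other 4 lines, PEA1 had the highest mean of the 6 lines in 75 of 131 in block A and 5 of 12 in block C, but in 1 of 398 in block B and 0 of 47 in block D. PEA2 had the lowest mean in 97, 6, 298 and 16 of them in the same order of blocks, and PEO1 had it in 20 of the 131. Over all windows PEA1 was highest in 254 of the 310 in block A, a count that the coverage limit partly fixes. Over the 777 windows PEA2 was lowest in 64.0%, against 3.56% of windows in the rest of chromosome 16, where A2780 was lowest in 48.9%.

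The step up in PEA2 lay outside the 10 Mb limit. In block E the relative level of PEA2 was -0.74 in 22 promoter windows and -1.13 in 100 distal windows, and in block F it was 0.60 and 1.20. The promoter window of ERCC4, a nuclease of nucleotide excision repair (chr16:14013001-14014000), had 2.29 FPKM in PEA2 and 2.36 FPKM in PEA1. The next window but one, at chr16:14050801-14051800, had 5.13 and 1.86 FPKM, and the 5 windows after it had 1.90 to 4.81 FPKM in PEA2 and 0.495 to 1.11 FPKM in PEA1. The 10 Mb limit itself fell in the introns of GRIN2A, an NMDA receptor subunit. The 3 windows just inside it had 0.221 to 0.917 FPKM in PEA2 and 0.165 to 0.313 FPKM in PEA1. The 3 windows just outside had 0.0829 to 0.214 FPKM in PEA2 and 0.0893 to 0.354 FPKM in PEA1. The PEA2 libraries held 1 to 23 reads in the windows inside and 0 to 5 reads in those outside.

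A list of 56 genes of the interval, grouped by role, was followed through the windows over their canonical start sites. Of these, 49 had such a window. GRIN2A starts beyond 10 Mb, and UBN1 and GLYR1 share 1 window, which leaves 47 windows within the interval. Of the 49 genes, 47 had a lower line mean in PEA2 than in PEA1, with a median log2 difference of -1.34. The exceptions were PMM2 at 0.11 and CLDN9 at 0.17. Of promoter windows on other chromosomes, 59.1% had a lower line mean in PEA2. The count of lower genes is a description, since the PEA contrast chose the interval.

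**Figure D5:**
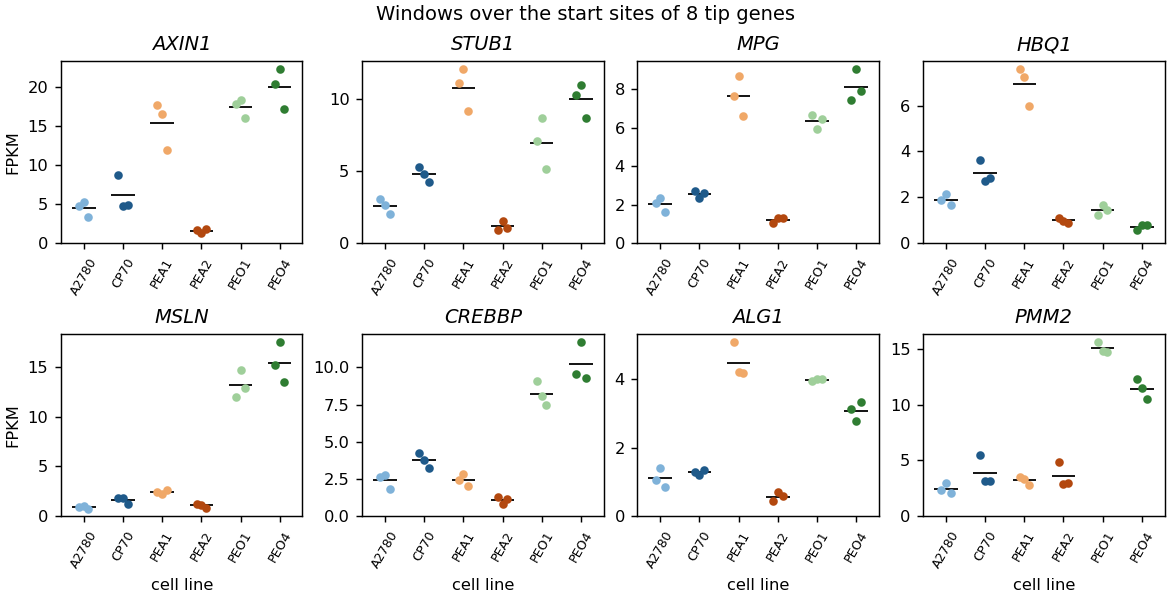
FPKM (y axis, from 0, scale set for each gene) in the window over the start site of 8 genes in the 3 libraries of each line, with bars for the mean. PEA2 lies lowest for AXIN1, STUB1, MPG, CREBBP and ALG1, and PEA1 lies above all other lines for HBQ1 at 5.99 to 7.59 FPKM.

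Within the globin group, all 4 genes with a window lay in block A. At HBQ1, the theta globin gene, coverage was 7.59, 7.23 and 5.99 FPKM in the PEA1 libraries and 1.10, 0.983 and 0.887 FPKM in PEA2. The other lines had means of 0.715 to 3.06 FPKM, so PEA1 stood above all of them. NPRL3, a component of the GATOR1 complex that restrains mTORC1, had 6.50, 5.51 and 4.94 FPKM in PEA1 and 0.659, 0.867 and 0.621 FPKM in PEA2. HBM and RHBDF1 differed by -2.27 and -2.49 on the log2 scale. The HBM window met the coverage limit only through PEA1, which largely fixed the sign of its difference. No window of the table covered the starts of HBZ, HBA1 and HBA2.

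Repair and signalling genes were spread over blocks A, B and D. MPG, the glycosylase that removes alkylated purines, had 7.63, 8.72 and 6.62 FPKM in PEA1 and 1.04, 1.33 and 1.29 FPKM in PEA2. STUB1, a ubiquitin ligase of the chaperone system, had 11.1, 12.1 and 9.16 FPKM in PEA1 and 0.934, 1.56 and 1.06 FPKM in PEA2. Both lie in block A. USP7, a deubiquitinase that acts on MDM2 and p53, lies in block D and had 2.76, 3.40 and 2.06 FPKM against 1.76, 1.62 and 1.64 FPKM. The 8 repair genes with a window had a median log2 difference of -1.25, and all 8 were lower in PEA2. AXIN1, a scaffold of the beta-catenin destruction complex, had 17.7, 16.6 and 12 FPKM in PEA1 and 1.70, 1.33 and 1.77 FPKM in PEA2. The start of AXIN1 in PEO1 (16 to 18.4 FPKM) and PEO4 (17.2 to 22.3 FPKM) overlapped the PEA1 range. TSC2, a suppressor of mTORC1 in block B, had 2.11, 1.84 and 2.49 FPKM in PEA1 and 0.605, 0.751 and 0.666 FPKM in PEA2. All 10 signalling genes were lower in PEA2, with a median of -1.50.

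Genes of transcription, metabolism and the cell surface were mostly in block B. CREBBP had 2.40, 2.80 and 2.01 FPKM in PEA1 and 1.26, 0.809 and 1.15 FPKM in PEA2. The 10 transcription factor and chromatin genes with a window had a median of -1.24, and the 10 metabolic genes a median of -1.25. ALG1, a mannosyltransferase of N-glycan synthesis in block C, had 5.09, 4.21 and 4.17 FPKM in PEA1 and 0.440, 0.694 and 0.577 FPKM in PEA2. PMM2, which makes mannose-1-phosphate for the same pathway, lies in block D and had 3.52, 3.30 and 2.83 FPKM against 4.84, 2.89 and 2.97 FPKM. The PMM2 libraries of the 2 lines overlapped, in contrast to ALG1. Among surface genes, MSLN, which encodes the ovarian tumour antigen mesothelin, had 2.27 to 2.64 FPKM in PEA1 and 0.843 to 1.26 FPKM in PEA2. Its PEO libraries were higher than both, at 12 to 14.7 FPKM in PEO1 and 13.5 to 17.5 FPKM in PEO4. RPS2, a ribosomal protein gene, had 2.78 to 4.36 FPKM in PEA1 and 0.621 to 0.824 FPKM in PEA2. The cyclin gene CCNF differed by -1.19 on the log2 scale.

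Windows with the extreme PEA values illustrate both ends. The lowest promoter windows in PEA2 relative to PEA1 belonged to NHLRC4 (log2 difference -3.26), CAPN15 (-3.19) and AXIN1 (-3.18). The lowest distal windows lay upstream of NME4 (-3.68), in DECR2 (-3.24) and in PDIA2 (-3.23). All 6 lie in block A. The NHLRC4, NME4 and PDIA2 windows met the coverage limit only through PEA1, which largely fixed the sign of their difference. The highest promoter windows were PRSS22, a serine protease gene, at 1.49, RBFOX1 at 0.39 and PMM2 at 0.11. At PRSS22 the PEA2 libraries had 1.76, 3.24 and 1.38 FPKM and the PEA1 libraries 0.513, 0.779 and 0.671 FPKM. The highest distal window, in an intron of RBFOX1, a neuronal splicing factor gene, had 2.97, 3.24 and 3.02 FPKM in PEA2 and 0.320, 0.125 and 0.288 FPKM in PEA1, a difference of 3.26. The PEA2 libraries also exceeded all libraries of the other lines at this window, which had at most 1.66 FPKM. Further high windows lay near LITAFD (2.06) and in an NTHL1 intron (1.40). The RBFOX1 and NTHL1 intron windows met the coverage limit only through PEA2, which largely fixed the sign of their difference. The rank of PEA2 above the other lines at the RBFOX1 intron window was largely fixed in the same way.

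The PEO pair was not used to choose the interval. Its libraries did count toward the coverage limit of the table, so a window could be kept for being high in either PEO line alone. With limma on log2(FPKM + 0.1), 539 of the 777 windows had a mean above 1 FPKM and were tested, beside 77654 windows in all. At a log2 fold change over 2 and an adjusted p under 0.001, 6 windows were higher and 4 lower in PEO4. The background over all windows was 2.72% higher and 5.78% lower, against 1.11% and 0.742% of the tip windows. At an adjusted p under 0.05, 150 windows rose (27.8%, background 21.9%) and 69 fell (12.8%, background 45.8%). The median log2 fold change of the tested tip windows was 0.13, against -0.30 over all tested windows. When each library was centred on its median, 326 rose and 33 fell, and with GC correction 130 rose and 46 fell. The share over all windows was not computed under either setting, so these counts have no background beside them. In block D 22 of 48 tested windows fell and 6 rose, so the share that fell there was close to the 45.8% of all tested windows.

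The strongest increase was in an intron of MAPK8IP3, a scaffold of JNK signalling and axonal transport (chr16:1813501-1814500). It had 2.85, 2.88 and 2.69 FPKM in the PEO4 libraries and 0.202, 0.524 and 0.223 FPKM in PEO1, so it rose by 2.88 on the log2 scale (SE 0.327; adjusted p = 1.01e-09, limma). The overlapping window starting at 1812601 rose by 2.00. An exonic window of CORO7, a coronin of the Golgi (chr16:4457701-4458700), had 1.86, 2.11 and 2.24 FPKM against 0.202, 0.524 and 0.111 FPKM, a rise of 2.66 (adjusted p = 1.52e-07, SE 0.383, limma). Further windows called higher lay in an NPRL3 intron (2.34) and in an ABAT intron (2.24). The NPRL3 intron window, chr16:151201-152200, had 2.01 to 2.69 FPKM in PEA1 as well, and 0.116 to 0.444 FPKM in PEA2. The windows in MAPK8IP3, CORO7 and ABAT met the coverage limit only through PEO4, which largely fixed the sign of their difference. Their adjusted p-values are therefore given as a description. With the pseudocount raised to 0.5 FPKM 1 window was called higher, and without PEO1 replicate 1 the count was 3.

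The windows called lower in PEO4 formed 2 neighbouring pairs in block D. In GRIN2A, the window at chr16:9947701-9948700 had 3.04, 2.62 and 2.12 FPKM in PEO1 and 0.407, 0.432 and 0.299 FPKM in PEO4, and fell by 2.49 on the log2 scale (adjusted p = 6.11e-09, SE 0.306, limma). Its neighbour starting at 9948601 fell by 2.32. At the 3' side of PMM2, an exonic window at chr16:8942401-8943400 had 2.73, 2.53 and 3.46 FPKM in PEO1 and 0.639, 0.336 and 0.498 FPKM in PEO4, and fell by 2.37 (adjusted p = 4.06e-09, SE 0.286, limma). An intergenic window starting at 8944201 fell by 2.28. The 4 lines other than the PEO pair had means of 0.0924 to 0.324 FPKM at the GRIN2A windows and 0.524 to 1.69 FPKM at the windows by PMM2. All of the windows called lower met the coverage limit only through PEO1, which largely fixed the sign of their difference. The low values in the other lines follow in part from the same limit, and the adjusted p-values are given as a description. With the pseudocount at 0.5 FPKM 0 windows were called lower, and 2 were with median centring or GC correction.

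Over the start sites of the gene list, 46 windows were tested in the PEO pair, of which 19 rose and 3 fell at an adjusted p under 0.05, beside the background of 21.9% higher and 45.8% lower over all tested windows. With median centring 37 rose and 0 fell, and with GC correction 11 rose and 3 fell, settings for which no background share was computed. RPS2 rose from 6.35 to 8.38 FPKM in the PEO1 libraries to 12.8 to 15.8 FPKM in PEO4 (log2 fold change 0.88, SE 0.124, limma, adjusted p = 1.15e-07). VASN, a trap for TGF-beta at the cell surface, rose by 0.87 (SE 0.139, limma, adjusted p = 1.04e-06). GLIS2, a zinc finger factor of the kidney, rose by 0.69 and STUB1 by 0.54. HBQ1 (-0.92), PMM2 (-0.41) and EME2 (-0.31) fell, the last a partner of the MUS81 nuclease, which turned to 0.04 with median centring. By group, 1 of 3 tested globin genes, 3 of 8 repair genes, 4 of 10 signalling genes, 5 of 10 transcription genes (UBN1 and GLYR1 through their shared window), 2 of 4 surface genes and 3 of 10 metabolic genes rose.

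In the A2780 pair, 643 of the windows were tested beside 37128 in all, and none passed a log2 fold change over 2 with an adjusted p under 0.001 in either direction by limma. The background was 0.428% higher and 0.369% lower. edgeR on the recovered reads also called 0, and 437 of the windows had an unadjusted p under 0.05 in limma. At an adjusted p under 0.05, 368 rose in CP70 (57.2%, background 47.5%) and 0 fell (background 2.29%). The median log2 fold change was 0.64 in the tip and 0.59 over all tested windows, so the tip lay close to the whole table. With median centring 22 rose and 8 fell, and with GC correction 14 rose and 11 fell. No background share was computed under either setting. Without the third A2780 library 111 rose. SOX8, a developmental transcription factor, had 3.33, 2.45 and 3.81 FPKM in CP70 and 1.53, 1.06 and 1.12 FPKM in A2780, a rise of 1.30 (adjusted p = 1.20e-05, SE 0.257, limma). The SOX8 window met the coverage limit only through CP70, which largely fixed the sign of its difference, so this p-value is a description. Of the 47 list windows within the interval 16 rose and 0 fell, beside the background of 47.5% and 2.29%. Their counts became 1 and 2 with median centring, again without a background share.

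Calls in the PEA pair are given for completeness and without inference, since that contrast chose the interval. Of 552 windows with a mean above 1 FPKM in the pair, 206 were past a log2 fold change of 2 and an adjusted p of 0.001 on the lower side and 2 on the higher side. The background was 1.42% lower and 11.2% higher. At an adjusted p under 0.05, 509 were lower (background 21.4%) and 7 higher (background 43.0%). Of the 206, 195 lay in block A, 2 in B and 9 in C, and the 2 on the higher side lay in block D. With a minimum mean of 5 FPKM the lower count was 19, and it was 97 among windows that met the coverage limit in the other 4 lines.

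Start-site windows of 5 of 6 epithelial and Müllerian marker genes were in the table, as a check of the labelled tissue. PAX8, a Müllerian transcription factor, had a mean of 0.610 FPKM in A2780 and 0.900 in CP70, of 3.37 in PEA1 and 2.47 in PEA2, and of 7.90 in PEO1 with 5.60 in PEO4. EPCAM, an epithelial adhesion gene, had 0.740, 1.18, 1.10, 2.09, 11.3 and 10.5 FPKM in the same order. WT1 had 1.10, 1.49, 1.97, 4.10, 16.5 and 20.6 FPKM. KRT8 and KRT18 were likewise highest in the PEO lines, at 7.34 to 11.8 and 6.03 to 8.14 FPKM, against 0.681 to 2.57 FPKM for both genes elsewhere. No window covered the start of MUC16. In PEA2 relative to PEA1, the WT1 and EPCAM means were higher and the PAX8, KRT8 and KRT18 means were lower.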

How the data were processed

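The authors aligned ATAC-seq reads to hg19 with Bowtie2, used Picard and counted reads in 1000 bp windows stepped by 900 bp, and deposited FPKM per window, which for these windows equals RPM. Whole reads were recovered from the RPM steps (100% of values within 0.01 of a whole read) for edgeR as an alternative. All 24 chromosomes fitted GRCh37 lengths. Windows were annotated with GENCODE 44 lifted to GRCh37. The members and gene lists were chosen with earlier results of these data known.

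Each pair was fitted with limma 3.58.1 (R 4.3.3) on log2(FPKM + 0.1), for windows with a mean above 1 FPKM in the 6 libraries, without blocks, with Benjamini-Hochberg adjustment over all windows. Tip shifts were compared by exact permutation. On simulated data for the PEO pair, 200 of 200 changed windows were recovered among 77654. Their change was set beyond the fold threshold, so this checks the code and not the power for weaker changes. Named windows were those over listed start sites, the 3 promoter and 3 distal windows with lowest and highest PEA difference, the 2 most changed PEO4 calls in each direction more than 2 kb apart, and 3 windows on each side of 10 Mb. Some listed windows and sequences are not reported here. The other PEO4 calls, the windows at the block bounds and ERCC4 were named after their values were seen. Scaling, filters, pseudocount, GC, depth, edgeR 4.0.16, blocks and left-out libraries were alternatives.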

Additional observations from a re-analysis of the deposited data

Results flagged for a closer look

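The shift of the 16p tip relative to the rest of chromosome 16 moved in opposite directions in different pairs. In the comparisons given here every resistant library lay on one side of every sensitive library, which did not hold for CP70 promoter windows. In promoter windows the PEO pair exceeded the PEA pair by 1.95 on the log2 scale (0.20 in PEO4 less PEO1, -1.75 in PEA2 less PEA1). In distal windows the PEO pair exceeded it by 3.41, and the PEA pair less the A2780 pair was -3.21. The difference between pairs was not tested, because the PEA contrast was used to choose the interval.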

How the results depend on the processing

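The PEA2 shift kept its sign under every alternative run. For promoter windows it was -1.43 with pseudocount 0.5, -1.19 against all windows outside the tip, -1.40 without the first megabase and -3.01 in that megabase alone, and leaving out 1 library gave -1.83 to -1.68. For distal windows it was -2.20, -2.24, -1.76 and -3.31 in the same order, -2.58 for windows with a mean above 1 FPKM, -2.43 with means in place of medians, -2.33 with GC correction and -1.82 for windows that met the coverage limit in the other 4 lines (range with 1 library left out, -2.95 to -2.73). The last setting and both on the first megabase were added after seeing the data. The near-zero CP70 promoter shift turned to -0.01 (mean above 1 FPKM, upper depth limit), -0.00 (15 Mb edge), -0.04 (GC correction) and -0.02 (limit met in the other 4 lines, without the first megabase), with -0.03 to 0.07 when 1 library was left out. The other CP70 and PEO4 shifts kept their sign.

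Windows called lower in PEA2 fell to 80 (pseudocount 0.5), 19 (minimum mean 5 FPKM) and 97 (limit met in the other 4 lines), with 178 to 235 when 1 library was left out. The 2 called higher became 1 (pseudocount 0.5, median centring, GC correction, limit met in the other 4 lines) and 0 (minimum mean 5 FPKM), and 1 to 2 with 1 library left out. Windows called higher in PEO4 became 1 (pseudocount 0.5) and 0 (minimum mean 5 FPKM), and 3 to 6 with 1 library left out. Those called lower became 0 with either of these and 2 with median centring or GC correction. The cause was not tested, beyond the fewer windows tested at a minimum of 5 FPKM.

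Of 2372 values of named windows under alternatives, 143 lost and 58 gained an adjusted p under 0.05, and 13 turned. In CP70 with GC correction they were HBQ1 -0.00, RHBDF1 -0.04, RHOT2 -0.05, CLDN9 -0.05, NDUFB10 -0.05, RPS2 -0.52, NHLRC4 -0.08, ABAT -0.60 and the MAPK8IP3 window starting at 1812601 -0.03, and ABAT was -0.52 with median centring. In PEO4 with median centring they were SLX4 0.28, EME2 0.04 and ABAT 0.28.

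Replicate numbers did not pair the libraries, since correlations of same-numbered deviations ran from -0.41 to 0.04. With the replicate block the shifts were 0.03 and 0.35 for CP70, -1.75 and -2.86 for PEA2 and 0.20 and 0.55 for PEO4 (promoter, distal), and 206 lower and 2 higher windows were called in PEA2 and 6 higher and 4 lower in PEO4, the numbers without it. At an adjusted p under 0.05 the block gave 316 higher windows in CP70 and 168 higher and 74 lower in PEO4. A 5 FPKM minimum left 3 CP70 windows past this threshold. Counting error limits PEA2, where the median tip window held 11 to 16 reads.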
